A study of Bos taurus with 48 samples.

Results

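Transcripts of 6 genes that remove superoxide and peroxides, or keep protein thiols reduced, were followed in subcutaneous adipose tissue of Norwegian Red heifers. The genes were SOD2 (ENSBTAG00000006523), PRDX3 (ENSBTAG00000008731), TXN2 (ENSBTAG00000000014), GLRX2 (ENSBTAG00000015972), CAT (ENSBTAG00000020980) and GPX7 (ENSBTAG00000018281). They were 6 of the 24616 genes in the count files. They were chosen by name and function with earlier results of these data known, and were matched by the Ensembl identifiers in the study's tables. All 6 passed the filter on low counts at both time points. Those tables list genes that differed between LPHE and LPLE heifers of 12 months in these same samples, so that contrast is no independent evidence on the direction of the members.

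The 24 heifers had one common diet up to 3 months of age and then one of 4 experimental diets, which combined high (HE) or low (LE) energy with high (HP) or low (LP) protein. The 4 diets LPHE, LPLE, HPHE and HPLE held 6 heifers each, 3 with a pedigree selected for high milk yield (HMY) and 3 with a pedigree selected against clinical mastitis (LCM). Fat was taken from every heifer at 12 months of age, while the experimental diets were fed, and again in month 7 of gestation at 20 to 24 months of age, after all heifers had moved to a shared low-energy feed, which gave 48 samples. Age, pregnancy and feed therefore changed together between the time points and cannot be told apart. Breeding was set by body weight, and the HE heifers grew faster and entered puberty and pregnancy younger, so energy level cannot be told apart from time since puberty or from age at the second sampling. HE heifers had silage ad libitum, LE heifers restricted rations with straw. At both protein levels HE heifers also took in more crude protein, and were heavier and fatter at 12 months. The HE-LE contrast cannot be told apart from these differences either.

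Superoxide leaks from the respiratory chain, and SOD2, the manganese superoxide dismutase of the mitochondrial matrix, turns it into hydrogen peroxide. PRDX3 is the matrix peroxiredoxin that reduces most of this peroxide, TXN2 is the mitochondrial thioredoxin that recharges PRDX3, and GLRX2 is a glutaredoxin that removes glutathione from mitochondrial protein thiols. CAT, catalase, splits hydrogen peroxide in peroxisomes, which also burn fatty acids. GPX7 is a peroxidase of the endoplasmic reticulum that passes oxidising equivalents to protein disulfide isomerase and so serves protein folding.

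Between 14815595 and 61027456 reads per sample were counted on genes, and the lowest count of any member in any sample was 208, for GLRX2. Levels are given as TMM-normalised CPM, which are read counts scaled to the library total. They are not scaled to transcript length and so do not rank the genes against each other. Of 6 adipocyte markers looked for, only the lipid droplet gene CIDEC had an identifier, and it was expressed at 810 to 2798 CPM in all samples. The summed level of 5 skeletal muscle genes had a median of at most 10.7 CPM in any group, but reached 286 CPM in one HPHE heifer of gestation. At 12 months it lay at 0.687 to 1.37 CPM in LPHE and at 1.13 to 60.5 CPM in LPLE heifers. All 5 genes were DEG, lower in LPHE, and 3 of 5 were lower in HE over both protein levels. The sum of 2 smooth muscle genes, MYH11 and CNN1, had a median of 98.89 CPM (43.06 to 319.9) in LPHE at 12 months. In LPLE at 12 months the median was 490.3 CPM (73.25 to 1780), and the ranges overlapped. The highest value was 3368 CPM, in an HPHE heifer of 12 months. Medians were also lower in HE at high protein at 12 months and at low protein in gestation. At high protein in gestation the HE median was higher. The identifiers of the markers come from the same tables as those of the members, and the part of muscle RNA in the members' values was not tested. In whole tissue, fewer cells of a type and less RNA per cell cannot be told apart. Markers of macrophages, endothelium, lymphocytes and red blood cells had no identifier in the tables and were not examined.

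At 12 months on low protein, 5 of the 6 genes were up-regulated in LPHE heifers and GPX7 was down-regulated (edgeR likelihood ratio test, false discovery rate, FDR, under 0.1). Of all 13339 genes tested, 7.08% were DEG (differentially expressed genes), 4.45% higher and 2.63% lower in LPHE, and the identifiers were taken from this contrast. The median log2 fold change of all genes was -0.02.

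The mitochondrial superoxide remover SOD2 ranged from 18.9 to 36.7 CPM (median 27.4) in LPHE heifers. It ranged from 11.9 to 28.0 CPM (median 16.5) in LPLE heifers. The groups overlapped through a single LPLE heifer at 28.0 CPM, with the others below every LPHE heifer. SOD2 was 1.58-fold higher in LPHE (log2 fold change 0.66, SE 0.22, FDR 0.0549).

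The peroxide and thiol genes of the mitochondria moved the same way. PRDX3 lay at 112 to 290 CPM (median 253) in LPHE and at 94.6 to 147 CPM (median 137) in LPLE heifers, and was 1.83-fold higher in LPHE (log2 fold change 0.87, SE 0.20, FDR 0.00414). One LPHE heifer, the lowest of its diet, fell among the LPLE heifers, and the other 5 were above all of them. TXN2 lay at 107 to 176 CPM (median 141) in LPHE and at 69.5 to 122 CPM (median 86.6) in LPLE heifers, and was 1.56-fold higher in LPHE (log2 fold change 0.64, SE 0.17, FDR 0.0116). GLRX2 lay at 15.8 to 29.2 CPM (median 25.5) in LPHE and at 13.97 to 23.1 CPM (median 14.7) in LPLE heifers, and was 1.46-fold higher in LPHE (log2 fold change 0.55, SE 0.19, FDR 0.0816). For both genes 4 LPHE heifers were above the whole LPLE group.

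Peroxisomal CAT ranged from 581 to 1106 CPM (median 888) in LPHE and from 377 to 778 CPM (median 590) in LPLE heifers, a 1.54-fold difference (log2 fold change 0.62, SE 0.19, FDR 0.0328). GPX7 went the other way. It ranged from 32.3 to 65.1 CPM (median 43.7) in LPHE and from 38.6 to 93.6 CPM (median 75.7) in LPLE heifers, and was 1.59-fold lower in LPHE (log2 fold change -0.67, SE 0.20, FDR 0.0273). For CAT 4 LPHE heifers were above every LPLE heifer, and for GPX7 4 LPLE heifers were above every LPHE heifer.

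**Figure D1:**
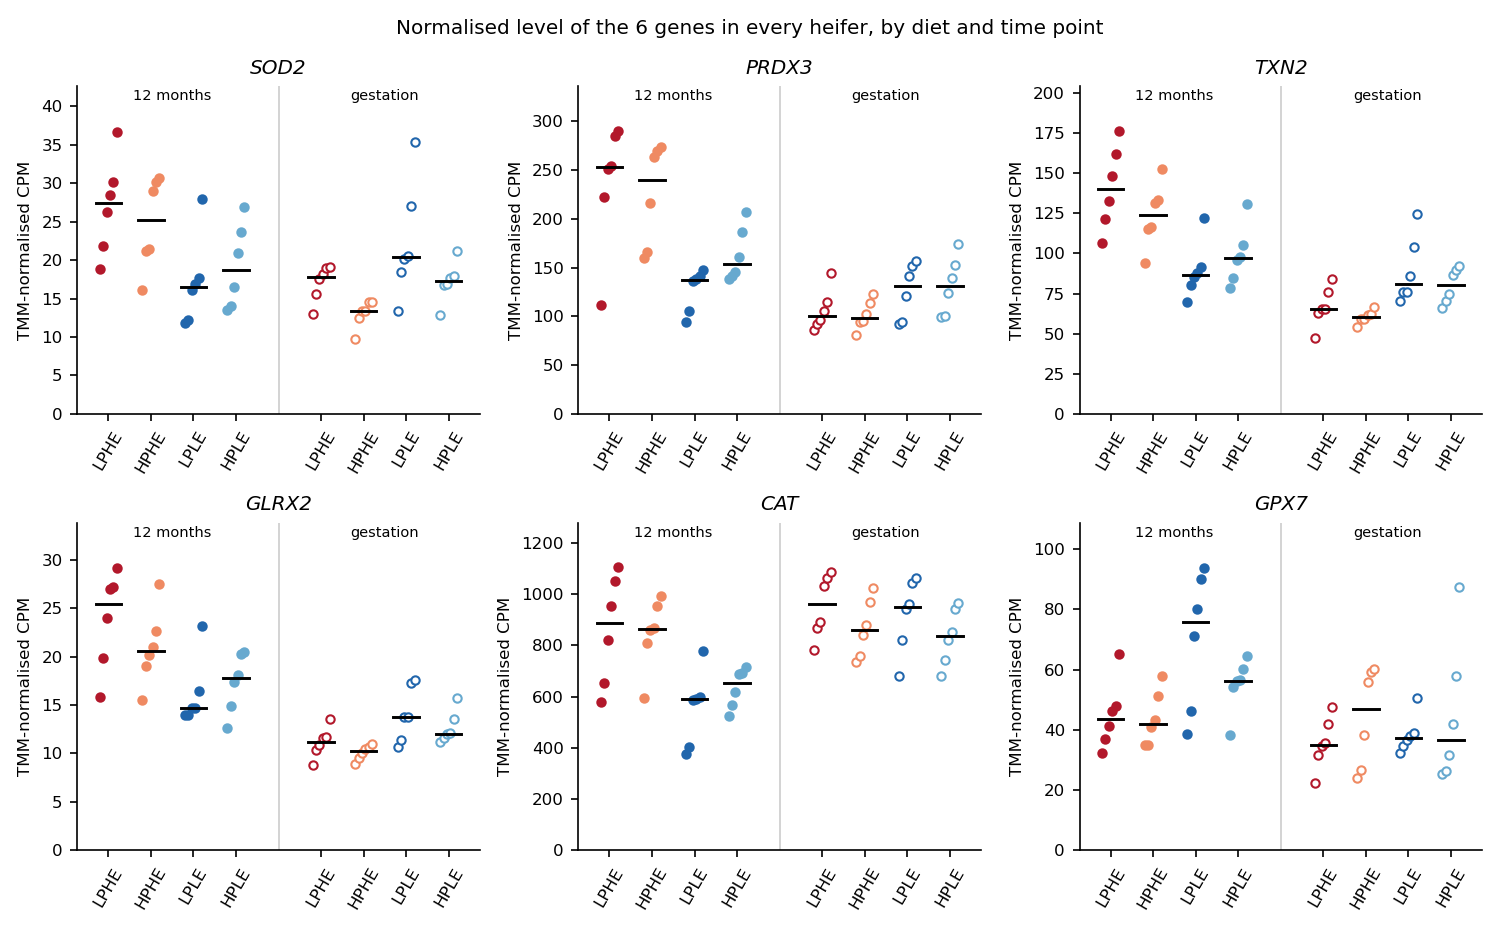
TMM-normalised CPM (linear axis from 0) of each of the 6 genes in every heifer, with diets on the horizontal axis, filled points for 12 months, open points for gestation and a bar at the median of 6 heifers. At 12 months the HE diets have the higher medians except for GPX7, and in gestation SOD2, PRDX3, TXN2 and GLRX2 have lower medians in HE than in LE at the same protein level.

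The exact permutation test of 6 heifers against 6, two-sided on log2(CPM + 0.5), gave p of 0.0065 for TXN2, 0.0108 for PRDX3, 0.0152 for SOD2, 0.0195 for CAT, 0.0216 for GLRX2 and 0.0455 for GPX7, where 0.00216 was the smallest possible. The members were identified from this contrast in these same heifers, so the p-values and calls here are no independent evidence. TXN2 and PRDX3 stayed DEG whichever of the 12 heifers was left out, but the other calls moved with single heifers. Without heifer 3 of LPHE, or without heifer 14 or 18 of LPLE, 3 members stayed DEG. SOD2 missed the threshold without any one of heifers 3, 5, 8, 14, 16 and 18 (FDR 0.101 to 0.174), CAT without heifer 3, 18 or 24 (FDR 0.105 to 0.123), and GPX7 without heifer 14 (FDR 0.130). GLRX2 missed it in 9 of the 12 such fits, all but those without heifer 4, 12 or 20 (FDR 0.135 to 0.226), and also with library sizes in place of TMM (FDR 0.148), with no filter on low counts (FDR 0.106) and with only the 12 LP samples fitted (FDR 0.176).

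On high protein at 12 months no member was a DEG, and 0.120% of the genes tested were. At an unadjusted p under 0.05, 965 of all genes and 2 of the members passed, and edgeR's quasi-likelihood test and DESeq2 also called 0 members. The log2 fold changes of HPHE over HPLE were 0.46 for PRDX3 (95% interval 0.06 to 0.86, FDR 0.585), 0.42 for CAT (0.05 to 0.79, FDR 0.585), 0.39 for SOD2 (-0.04 to 0.81, FDR 0.732), 0.31 for TXN2 (-0.02 to 0.65, FDR 0.724), 0.26 for GLRX2 (-0.12 to 0.64, FDR 0.791) and -0.35 for GPX7 (-0.73 to 0.04, FDR 0.738). All 6 had the sign of the low-protein contrast, at a smaller size. The study reports an unchanged direction on high protein for most of its low-protein DEG. The members were identified from that list, so neither the shared sign nor the smaller size is a result about them. The difference between both energy contrasts, tested itself, was not significant for any member (0 DEG, 0.105% of all genes). At an unadjusted p under 0.05, 507 of all genes and 0 members passed in that test, and the quasi-likelihood test and DESeq2 called 0 members. The smallest p was 0.151, for PRDX3, whose energy contrast was 0.41 log2 units larger on low protein (95% interval -0.15 to 0.98).

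Over both protein levels at 12 months, the 12 HE heifers were compared with the 12 LE heifers at the stricter FDR of 0.05, at which 7.20% of genes were DEG, 4.69% higher and 2.51% lower in HE. All 6 members passed, with PRDX3 (log2 fold change 0.67, FDR 0.000565), TXN2 (0.48, FDR 0.00435), CAT (0.52, FDR 0.0049), SOD2 (0.52, FDR 0.0175) and GLRX2 (0.41, FDR 0.0454) higher and GPX7 (-0.51, FDR 0.0101) lower in HE. The 6 LP heifers of each energy level are part of this contrast too. SOD2 missed the threshold without heifer 19 (FDR 0.0501). GLRX2 missed it without any one of 17 of the 24 heifers (FDR 0.0582 to 0.117, all but heifers 4, 7, 12, 15, 17, 20 and 21), with library sizes in place of TMM (FDR 0.103) and with no filter on low counts (FDR 0.0605).

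In month 7 of gestation the energy contrast of TXN2 had the opposite sign. TXN2 lay at 47.6 to 84.3 CPM (median 62.7) in the 12 HE heifers and at 65.7 to 125 CPM (median 81.1) in the 12 LE heifers. It was down-regulated 1.34-fold in HE (log2 fold change -0.42, SE 0.11, FDR 0.00447), with 9 HE heifers below every LE heifer. TXN2 was the only member past the FDR of 0.05, at which 3.74% of the 13403 genes tested were DEG (2.66% of genes tested were lower in HE). The members were identified from an energy contrast in part of these heifers, so that share is no fair background for them. The count of 1 member became 2 with edgeR's quasi-likelihood test, 3 with DESeq2 and 3 with weighted-likelihood dispersions.

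The other mitochondrial members had negative log2 fold changes too and did not pass in the likelihood ratio test. SOD2 lay at 9.69 to 19.1 CPM (median 14.6) in HE and at 12.8 to 35.4 CPM (median 18.1) in LE heifers, and its log2 fold change was -0.41 (SE 0.14, FDR 0.0618). GLRX2 lay at 8.76 to 13.6 CPM (median 10.5) in HE and at 10.7 to 17.6 CPM (median 12.8) in LE heifers, and its log2 fold change was -0.34 (SE 0.12, FDR 0.0754). PRDX3 lay at 80.8 to 144 CPM (median 98.9) in HE and at 91.7 to 174 CPM (median 131) in LE heifers, and its log2 fold change was -0.32 (SE 0.12, FDR 0.136). The groups overlapped for all 3 genes. GLRX2 passed with the quasi-likelihood test (FDR 0.0353), DESeq2 (FDR 0.00706) and weighted-likelihood dispersions (FDR 0.0242), and SOD2 with DESeq2 (FDR 0.0265) and weighted-likelihood dispersions (FDR 0.0377).

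CAT and GPX7 showed no detectable energy contrast in gestation. CAT had a median of 886 CPM in HE and 897 CPM in LE heifers (log2 fold change 0.05, 95% interval -0.17 to 0.26, FDR 0.884). GPX7 had a median of 36.9 CPM in HE and 37.3 CPM in LE heifers (log2 fold change -0.08, 95% interval -0.44 to 0.29, FDR 0.893). Whether these contrasts differed from those of 12 months is given with the test of that difference.

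**Figure D2:**
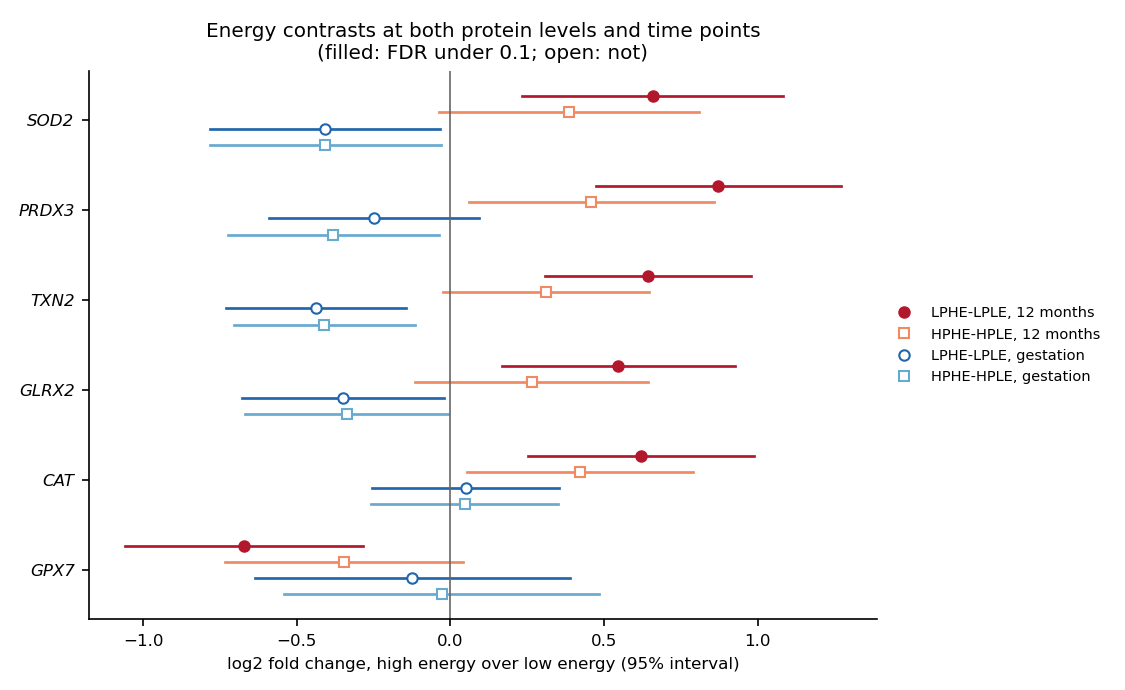
Log2 fold change of high over low energy (horizontal axis, with 95% interval) for each gene at low protein (circles) and high protein (squares), at 12 months (red and orange) and in gestation (blue), with filled symbols for an FDR under 0.1. The 4 mitochondrial genes lie right of 0 at 12 months and left of 0 in gestation at both protein levels, CAT lies near 0.05 in gestation and GPX7 lies left of 0 throughout.

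At each protein level alone, no member was a DEG in gestation (LPHE-LPLE 1.05%, HPHE-HPLE 0.948% of genes). At an unadjusted p under 0.05, 3 members and 1335 genes passed on low protein, and 4 members and 904 genes on high protein. DESeq2 called 1 member on low protein, TXN2 (FDR 0.0700), and edgeR's quasi-likelihood test called 0 in either contrast. TXN2 differed by -0.44 on low protein (SE 0.15, FDR 0.192) and by -0.41 on high protein (SE 0.15, FDR 0.311), and the low-protein value passed without heifer 18 (FDR 0.0460) or heifer 20 (FDR 0.0927). GLRX2 was the 1 member of 6 whose HPHE and HPLE heifers did not overlap in gestation, as 0.806% of all genes did not, at 8.95 to 10.98 CPM against 11.2 to 15.7 CPM (exact permutation p = 0.00216, the smallest possible), while its FDR was 0.720. The log2 fold changes of the mitochondrial members ran from -0.44 to -0.25 on low and from -0.41 to -0.34 on high protein, and their difference was a DEG for no member (0.00746% of genes, 107 genes and 0 members at an unadjusted p under 0.05, 0 by the quasi-likelihood test and by DESeq2).

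The number of members past the FDR of 0.05 over both protein levels moved with single heifers. SOD2 passed without heifer 2, 7 or 18 (FDR 0.0111 to 0.0489), GLRX2 without heifer 4, 13 or 18 (FDR 0.0281 to 0.0484) and PRDX3 without heifer 13 (FDR 0.0448). TXN2 passed in all 24 such fits.

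From 12 months to gestation the mitochondrial genes fell on both HE diets. The fold changes and FDR between time points are from the fit of all 48 samples, which holds no term for the heifer. In LPHE heifers the log2 fold change was -1.14 for PRDX3 (FDR 1.03e-07), -1.10 for GLRX2 (FDR 1.24e-08), -1.09 for TXN2 (FDR 6.18e-10) and -0.66 for SOD2 (FDR 0.00925). In HPHE heifers it was -1.15 for PRDX3 (FDR 7.75e-08), -1.05 for GLRX2 (FDR 5.14e-08), -1.03 for TXN2 (FDR 3.15e-09) and -0.94 for SOD2 (FDR 0.000113). DEG made up 29.8% of the 13718 genes in LPHE, 2197 of them lower and 1891 higher in gestation, and 32.4% in HPHE, 2175 lower and 2264 higher, and 4 of the 6 members fell on each diet. The 12-month LPHE and LPLE samples are those the identifiers came from, so changes with time on these 2 diets are no independent evidence. The adipocyte gene CIDEC fell too, in LPHE (log2 fold change -0.53, FDR 0.0516) and HPHE (-0.77, FDR 0.00268), and of 3 fibroblast markers DCN rose on both diets (0.72, FDR 0.01 and 0.85, FDR 0.00168). Libraries of gestation were deeper, with a median of 43293433 against 32166717 reads on genes at 12 months. Each of the 4 genes was lower in gestation in 12 of 12 HE heifers (exact sign-flip permutation p = 0.000488, the smallest possible for 12 heifers).

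On the LE diets these 4 genes did not pass the test between the time points. In LPLE heifers the log2 fold changes were 0.41 for SOD2 (FDR 0.559), 0.00 for TXN2, -0.01 for PRDX3 and -0.19 for GLRX2. In HPLE heifers they were -0.16 for SOD2, -0.31 for TXN2 (FDR 0.420), -0.31 for PRDX3 (FDR 0.586) and -0.45 for GLRX2 (FDR 0.194). GLRX2 was lower in gestation in 6 of 6 HPLE heifers (exact sign-flip permutation p = 0.0312, the smallest possible). Over the 12 LE heifers SOD2 was higher in gestation in 8, while TXN2 and PRDX3 were lower in 8. GLRX2 was lower in 10 of 12 (mean -0.31 on the log2 scale, exact sign-flip permutation p = 0.0239). No member was a DEG in HPLE (2.62% of genes, 1510 genes and 3 members at an unadjusted p under 0.05), where the quasi-likelihood test called 0 and DESeq2 called GLRX2 (FDR 0.0858).

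CAT and GPX7 were the members that passed in LPLE heifers, where 0.598% of genes were DEG, 0.335% higher and 0.262% lower in gestation. The members were identified from a contrast that holds the earlier LPLE samples, with CAT lower and GPX7 higher in LPLE. These calls and their directions are therefore no independent evidence, and the share of all genes is no fair background for them. CAT rose 1.66-fold (log2 fold change 0.73, SE 0.16, FDR 0.00626) from a median of 590 to 951 CPM and was higher in gestation in 6 of 6 heifers. GPX7 fell 1.81-fold (log2 fold change -0.86, SE 0.24, FDR 0.0875) from a median of 75.7 to 37.3 CPM, and was lower in 6 of 6 heifers. CAT was also higher in gestation in 6 of 6 HPLE heifers (log2 fold change 0.41, FDR 0.239). On the HE diets CAT differed by 0.15 in LPHE (FDR 0.531, or 0.32 and FDR 0.0856 with library sizes in place of TMM) and 0.03 in HPHE (FDR 0.911), and GPX7 by -0.32 (FDR 0.359) and 0.00 (FDR 0.993). The LPLE call of GPX7 was lost without any one of heifers 4, 10, 14 and 18 (FDR 0.136 to 0.384) and with the quasi-likelihood test (FDR 0.193), library sizes (FDR 0.103), no filter (FDR 0.108) and weighted-likelihood dispersions (FDR 0.107).

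**Figure D3:**
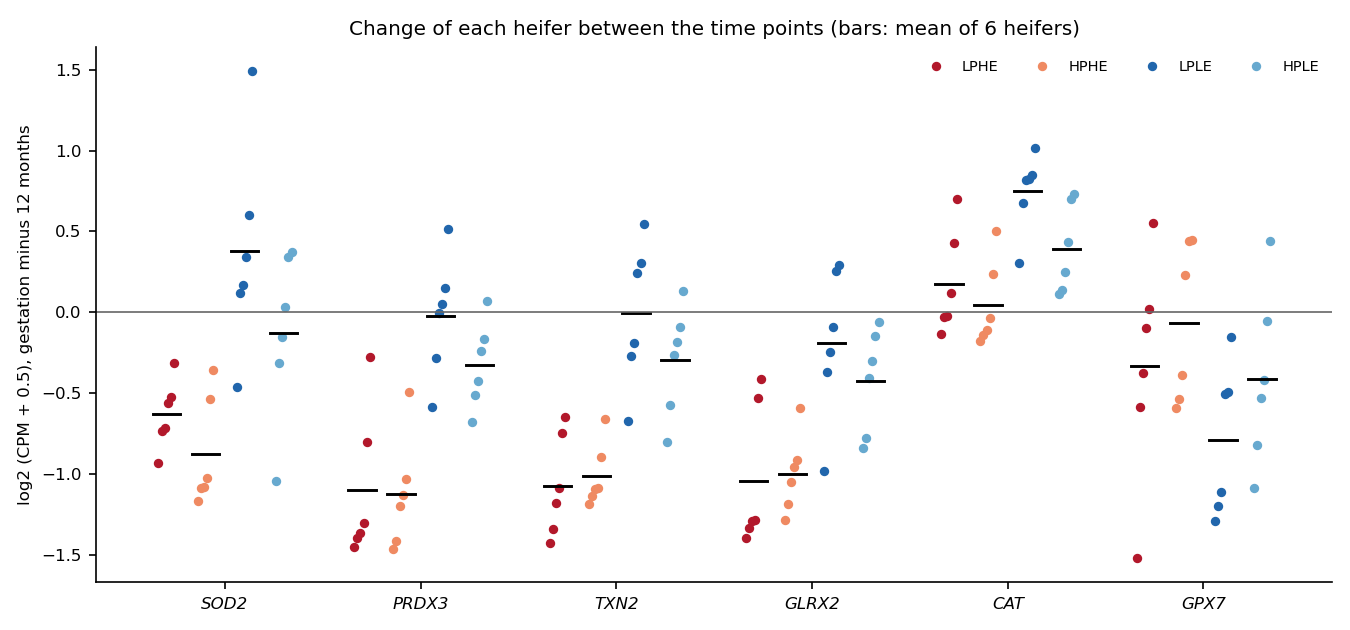
Change of each heifer between the time points as log2(CPM + 0.5) in gestation minus 12 months (vertical axis), by gene and diet (colours), with a bar at the mean of 6 heifers. All HE heifers lie below 0 for SOD2, PRDX3, TXN2 and GLRX2, and all LE heifers lie above 0 for CAT.

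Averaged over the diets, all 6 members passed between the time points, as did 44.5% of all genes, 21.9% higher and 22.6% lower in gestation. CAT was higher in gestation (log2 fold change 0.33, FDR 0.000363) and SOD2 (-0.33, FDR 0.00475), GPX7 (-0.36, FDR 0.011), TXN2 (-0.61, FDR 1.92e-13), PRDX3 (-0.65, FDR 1e-10) and GLRX2 (-0.70, FDR 1.57e-14) were lower. For 5 of the members, all but GPX7, these averages cover energy levels whose change with time differed, as the test of the difference shows. The energy contrast in gestation minus that at 12 months was negative for 5 members, PRDX3 (log2 difference -0.98, SE 0.19, FDR 1.16e-05), SOD2 (-0.93, SE 0.20, FDR 0.000238), TXN2 (-0.90, SE 0.15, FDR 6.44e-07), GLRX2 (-0.75, SE 0.17, FDR 0.0003) and CAT (-0.47, SE 0.16, FDR 0.0306). Of all genes 21.3% passed this test, 12.0% in the negative direction, and the median of all genes was 0.06. In the heifers' own changes, HE minus LE was -0.94 for PRDX3, -0.89 for TXN2, -0.88 for SOD2, -0.71 for GLRX2 and -0.46 for CAT on the log2(CPM + 0.5) scale (permutation p of 4e-05 to 0.00174 with 100000 resamples). GPX7 differed by 0.41 (SE 0.24, 95% interval -0.07 to 0.89, FDR 0.256). It passed without heifer 13 (FDR 0.0834) and with library sizes in place of TMM (FDR 0.0951). The tissue markers differed in this test as well, with CIDEC at -0.70 (FDR 0.0116), COL1A1 at 0.996 (FDR 0.0804), COL3A1 at 0.70 (FDR 0.0926) and DCN at 0.75 (FDR 0.0106). Of 5 skeletal muscle genes MYH7 (2.28, FDR 0.0604) and MYLPF (3.93, FDR 0.0546) passed too. The part of these markers in the members' values was not tested. The 12-month LP samples that the identifiers came from are part of this difference, whereas the gestation samples are not.

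The order of the 8 diet-by-time groups by median differed between the genes. For PRDX3, TXN2 and GLRX2 the 4 groups of 12 months came first, led by LPHE and HPHE, and the LPHE and HPHE groups of gestation came last. SOD2 had LPHE and HPHE of 12 months on top (27.4 and 25.2 CPM) and HPHE of gestation at the bottom (13.4 CPM), with LPLE of gestation next after the top pair. For CAT the lowest groups were LPLE and HPLE of 12 months (590 and 654 CPM), and for GPX7 these same groups were the highest (75.7 and 56.3 CPM). For every gene, each group's range overlapped that of its neighbour in the order.

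Protein level and pedigree gave no DEG among the members at either time point. Of all genes, 0.0600% were DEG between HP and LP and 0.0300% between HMY and LCM at 12 months, and 0.0895% and 0.179% in gestation. Between HP and LP the member with the lowest FDR was SOD2 in gestation (log2 fold change of HP over LP -0.40, SE 0.14, 95% interval -0.66 to -0.13, FDR 0.532). It lay at 9.69 to 21.2 CPM (median 14.6) in HP and at 12.97 to 35.4 CPM (median 18.7) in LP heifers. GPX7 was the only member with an unadjusted p under 0.05 between pedigrees, at 12 months (HMY over LCM log2 fold change 0.28, 95% interval 0.01 to 0.56, FDR 0.516). At that threshold 277 genes and 0 members passed for protein and 1228 genes and 1 member for pedigree at 12 months, and 510 genes and 1 member and 889 genes and 0 members in gestation. The quasi-likelihood test and DESeq2 called 0 members in all 4 contrasts.

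Among other genes of peroxide and superoxide removal, identifiers were at hand for 8 entries. They were SOD1, the cytosolic superoxide dismutase (2 identifiers, between which reads could be split), the peroxiredoxins PRDX1 and PRDX6, SRXN1 (sulfiredoxin, which repairs overoxidised peroxiredoxins), TXNL1 (a thioredoxin-like protein), GLRX (the cytosolic glutaredoxin) and MSRA, which reduces oxidised methionine. They come from the same list of LPHE-LPLE DEG as the members, and the count of 8 of 8 higher in LPHE in that contrast is therefore no result. Every contrast that uses the 12-month LP samples, the change with time in LPHE included, shares values with that choice. In the other contrasts too, the shares and medians of all genes are no fair background for genes chosen for a difference with energy. The other glutathione peroxidases, the thioredoxin reductases, the NADPH suppliers and the regulator NFE2L2 had no identifier in the tables and were not analysed here.

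On high protein at 12 months none of the 8 was a DEG, beside 0.120% of all genes, with a median log2 fold change of 0.28 against -0.01 for all genes. In gestation 2 of 8 were lower in HE, as were 2.66% of all genes. They were PRDX1 (log2 fold change -0.40, SE 0.10, FDR 0.00256) and SRXN1 (-0.56, SE 0.15, FDR 0.0093). The median of the 8 was -0.26 against 0.01 for all genes. PRDX1 had medians of 132 and 122 CPM in LPHE and HPHE heifers of gestation and of 171 and 161 CPM in LPLE and HPLE heifers. The groups overlapped at both protein levels. From 12 months to gestation, 7 of 8 fell in LPHE and 6 of 8 in HPHE heifers, beside 29.8% and 32.4% of all genes that changed in either direction, and none passed in LPLE or HPLE. The energy contrast was lower in gestation than at 12 months for 8 of 8 (median -0.65, against 12.0% of all genes and a median of 0.06), a count that the choice of the genes bears on. It ran from -0.42 for PRDX6 to -1.77 for SRXN1 (FDR 9.54e-06).

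Mitochondrial genes with other tasks were read beside them. Identifiers were at hand for 8 of 15 such genes, among them CS (citrate synthase), VDAC1 (a pore of the outer membrane), TIMM23 (protein import) and HSPA9 (a matrix chaperone), again all from the LPHE-LPLE list. Genes of that list were chosen for a difference with energy, so the shares and medians of all genes are no fair background for them. On high protein at 12 months 0 of 8 were DEG, beside 0.120% of all genes (median log2 fold change 0.34, against -0.01 for all genes). In gestation 6 of 8 were lower in HE, as were 2.66% of all genes. Among the 6 were TIMM23 (-0.54, FDR 0.000733), CS (-0.52, FDR 0.00115) and HSPA9 (-0.50, FDR 0.00943). The median of the 8 was -0.38, against 0.01 for all genes. With time, 8 of 8 fell in LPHE (median -1.001), whose 12-month samples bear on the choice of the genes, and in HPHE (median -1.05), beside 29.8% and 32.4% of all genes changed in either direction, and none passed in LPLE (median 0.01) or HPLE (median -0.31). Of 14 peroxisomal genes only PEX19 and SLC25A17 had identifiers. Both were lower in HE in gestation (-0.51, FDR 0.000513 and -0.36, FDR 0.0228), where CAT differed by 0.05.

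**Figure D4:**
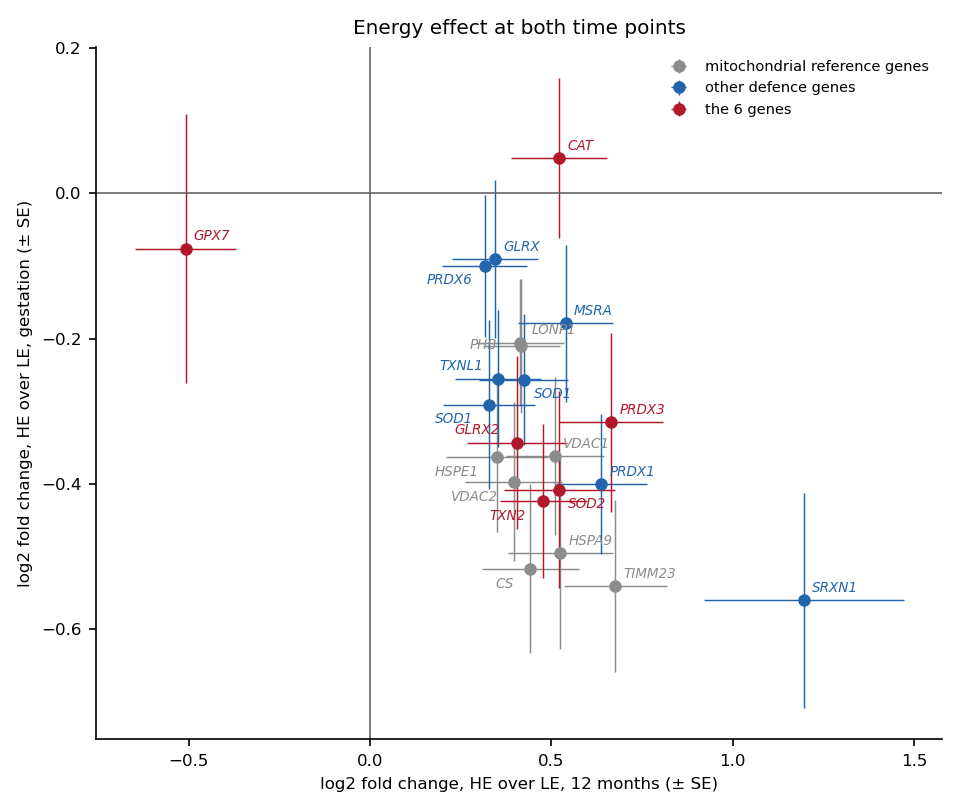
Log2 fold change of HE over LE at 12 months (horizontal axis) and in gestation (vertical axis), each with its SE, for the 6 genes (red), 8 other defence entries (blue) and 8 mitochondrial reference genes (grey). Blue and grey points and 4 of the red points lie right of 0 and below 0, CAT lies just above the horizontal line at 0.05 and GPX7 lies left of 0 at -0.51.

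The genes whose levels over the 24 samples of 12 months ranked most like each member (Spearman's rho, among genes with a symbol in the study's tables) were as follows. TXN2 was most like the respiratory and citrate cycle genes CYC1 (0.97), OGDH (0.96) and MDH2 (0.96), and the same 3 had a rho of 0.92 to 0.96 in the 24 samples of gestation. GLRX2 was most like NDUFA5, ACAT1 and LACTB2 (0.92 to 0.93, and 0.50 to 0.73 in gestation), and PRDX3 most like RBKS, LOC518623 and ATPAF1 (0.91 to 0.92, and 0.53 to 0.79 in gestation). SOD2 was most like CRYAB, RBKS and SDHA (0.82 to 0.83, and 0.15 to 0.53 in gestation), and CAT most like SORD, ACADSB and SERINC1 (0.89 to 0.90, and 0.30 to 0.68 in gestation). Samples of all diets are pooled in these values. The members and the genes with a symbol come from tables of DEG between diets at 12 months, so the 12-month values are no independent evidence.

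For GPX7 the gene most like it at 12 months was COL3A1, a fibrillar collagen (rho 0.94), followed by C1QTNF6 (0.93) and GPR162 (0.93), and in gestation these had a rho of 0.85, 0.89 and 0.74. These values also pool the diets and rest on the same tables. The summed level of COL1A1, COL3A1 and DCN, markers of fibroblasts and adipocyte progenitors, had its highest median in LPLE heifers of 12 months (55080 CPM, range 26580 to 67880) and lay at 26890 CPM (13520 to 41550) in LPHE heifers. COL1A1 (log2 fold change -1.09, FDR 0.0202), COL3A1 (-0.91, FDR 0.0129) and DCN (-0.63, FDR 0.0816) were lower in LPHE, in the contrast from which their identifiers and that of GPX7 were taken, so this is a description. In gestation none of the 3 was a DEG between HE and LE (log2 fold changes 0.12 to 0.20), and neither was GPX7. The adipocyte gene CIDEC had a median of 1253 CPM in LPLE and 2035 CPM in LPHE heifers of 12 months (log2 fold change 0.58, FDR 0.132), and was higher in HE over both protein levels (0.54, FDR 0.0203). The part of the marker genes in the results of the members was not tested.

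Between heifers of 12 months, levels of TXN2, PRDX3 and GLRX2 were correlated, with r from 0.61 to 0.72 and rho from 0.54 to 0.70 for the 3 pairs with diet means removed (adjusted permutation p of 0.00735 to 0.0109 and 0.0119 to 0.0439, and r from 0.41 to 0.69 without the 2 farthest heifers). At 12 months TXN2 and GLRX2 had Pearson's r of 0.85 and Spearman's rho of 0.83 over 24 heifers (permutation p = 1e-05 for each, the smallest that the resamples can give, adjusted p = 0.0001 and 7.5e-05 over 15 pairs of members). The members were identified from the LPHE-LPLE contrast of 12 months. Relations at 12 months that pool the diets are therefore no independent evidence. Without the 2 heifers farthest from the median of TXN2, r was 0.82, and with diet means removed it was 0.72 (rho 0.70, permutation p = 0.00049 and 0.00079, adjusted p = 0.00735 and 0.0119). CAT was correlated with PRDX3 as well at 12 months (r 0.61 and rho 0.56 with diet means removed, permutation p = 0.00278 and 0.00736, adjusted p = 0.0109 and 0.0368, and r 0.60 without the 2 farthest heifers). In gestation TXN2 and GLRX2 had r of 0.72 and rho of 0.76 (permutation p = 0.0001 and 5e-05, adjusted p = 0.00105 and 0.00075), and 0.61 without the 2 farthest heifers. With diet means removed r was 0.48 and rho 0.34 there (permutation p = 0.0589 and 0.157, adjusted p = 0.221 and 0.587), so the gestation relation did not pass within diets. GPX7 was negatively related to each of the other 5 at 12 months (r from -0.61 to -0.47 and rho from -0.61 to -0.44, adjusted permutation p of 0.00231 to 0.0191 for r, and r from -0.58 to -0.32 without the 2 farthest heifers). In the contrast that gave the identifiers, GPX7 was lower and the other 5 were higher in LPHE. The negative sign over pooled diets is therefore no independent evidence. None of these 5 relations passed with diet means removed (r from -0.42 to -0.19, adjusted p of 0.139 or more), and in gestation r lay between -0.06 and 0.09.

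The level of a heifer at 12 months was also set against its own level in gestation. With diet means removed, r over the 24 heifers ran from -0.22 for GLRX2 to 0.50 for CAT. For CAT, r was 0.50 and rho 0.50 (permutation p = 0.0272 and 0.0188, adjusted p = 0.163 and 0.113 over 6 genes), and r was 0.28 without the 2 heifers farthest from the median. No such relation passed over the 6 genes.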

How the data were processed

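Gene counts came from 48 libraries of subcutaneous fat, 2 per heifer. The authors trimmed reads of the TruSeq RNA v2 kit, which does not mark strand, with cutadapt (1.3), aligned them to UMD3.1 with TopHat2 (2.0.12) and used HTSeq for counting over Ensembl genes, and the deposited values are raw counts. Reads of a gene and of an antisense partner cannot be told apart. The 5 HTSeq summary rows were left out: of all reads tallied, 20.3 to 27.7% lay on no feature, 0.718 to 1.71% were ambiguous and 12.7 to 40.0% did not align uniquely. Groups came from the labels. The members and gene lists were chosen with earlier results of these data known, and symbols came from the study's tables.

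Genes with CPM of at least 2 in at least 3 samples were kept. Counts were fitted with glmFit in edgeR 4.0.16 (R 4.3.3; TMM, tagwise dispersions) on diet and genetic group, with 24 samples per time point or with all 48 in 8 diet-by-time groups. Each contrast was given a likelihood ratio test with Benjamini-Hochberg adjustment over all genes kept (FDR 0.1, or 0.05 for HE-LE). Counts were also simulated, with the same dispersion for all genes and no link between the samples of a heifer. There this test passed more unchanged genes than its FDR states, whereas the quasi-likelihood test, an alternative, stayed near it. The false share in the real counts, where dispersions differ between genes, was not measured. SE are Wald standard errors. Single genes were tested by permutation of log2(CPM + 0.5), with 100000 resamples for 10 or more heifers per group. Genes named are all members, genes of the lists that passed (up to 6 per comparison, taken by p) and, for each member, the 3 genes most like it.

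The 2 samples of a heifer are paired by animal. Deviations from group means correlated by -0.06 to 0.58 (median 0.30) over 13718 genes. No samples of a group agreed within sampling noise (lowest chi-square per degree of freedom 38.3 over 120 pairs). P-values of contrasts within one time point measure the spread between heifers. Those of the main edgeR fit between time points treat the 2 samples of a heifer as independent, whereas the sign-flip tests pair them. Other normalisations, filters, tests (DESeq2 1.42.0), sample sets and each heifer left out were tried.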

Additional observations from a re-analysis of the deposited data

Results flagged for a closer look

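The test of whether the energy contrast differed between the time points (edgeR likelihood ratio test, all 48 samples) passed for 5 members, as it did for 21.3% of all genes (12.0% negative). The contrast was lower in gestation than at 12 months for each: SOD2 by -0.93, CAT by -0.47, TXN2 by -0.90, PRDX3 by -0.98 and GLRX2 by -0.75 on the log2 scale. All 12 HE heifers fell in SOD2, PRDX3, TXN2 and GLRX2 while LE heifers moved in both directions, GLRX2 falling in 10 of 12, and all 12 LE heifers rose in CAT. The 12-month LP samples that the identifiers came from are part of this test and of these counts, so neither is independent evidence.

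Of 48 gene-by-group sets of 6 heifers, 3 had a heifer far from the others by Dixon's test, and chance flags about 1 in 20 sets. Among LPLE heifers of 12 months, heifer 22 had 28.0 CPM of SOD2, with the next at 17.7 CPM, and heifer 4 had 23.1 CPM of GLRX2, with the next at 16.4 CPM. Among LPLE heifers of gestation, heifer 22 had 50.6 CPM of GPX7, with the next at 38.98 CPM. Both 12-month values lie toward the LPHE level.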

How the results depend on the processing

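The number of DEG among the 6 members was within 1.5 times the count given, outside the fits that leave out a heifer, except in these settings. For HE-LE in gestation (1 member) it was 3 at an FDR of 0.1, 3 with DESeq2, 3 with weighted-likelihood dispersions (an alternative chosen after seeing the data) and 2 with the quasi-likelihood test. For LPLE with time (2 members) it was 1 at an FDR of 0.05, with the quasi-likelihood test, library sizes, no filter and weighted-likelihood dispersions. DESeq2 called 1 member for LPHE-LPLE in gestation and 1 for HPLE with time, against 0. With each heifer left out in turn, the count was 3 to 6 for LPHE-LPLE and 4 to 6 for HE-LE at 12 months, 0 to 1 for LPHE-LPLE and 1 to 3 for HE-LE in gestation, 1 to 2 for LPLE with time and 5 to 6 for the energy difference between time points. With the heifer as a replicate block, 4, 2, 4 and 0 members were called in LPHE, LPLE, HPHE and HPLE with time, 6 over all diets and 5 for the energy difference, so the block changed no call. Over all genes, DEG for LPHE-LPLE at 12 months ranged from 555 (FDR 0.05) to 1615 (DESeq2) against 944, and from 484 to 1719 without a heifer, and for HE-LE they ranged from 905 to 1598 at 12 months (960) and from 339 to 1151 in gestation (501). The quasi-likelihood test called 0 genes of any kind in HPHE-HPLE at both times, in LPHE-LPLE of gestation, for protein and pedigree and for the difference between protein levels. No called value of a member changed sign. Among 2964 refitted values, 16 not called changed sign outside the fits without a heifer (size at most 0.07) and 78 within them (at most 0.25). Library sizes in place of TMM moved the median of all genes by 0.17 in LPHE and 0.13 in HPHE with time and by 0.12 for the energy difference. The lowest count of a member was 208 reads. Identifiers taken from one list of DEG limit what the gene lists can show, and the causes of the shifts above were not tested.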
